A study of Mus musculus with 12 samples.

Results

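Klhl24 and 7 further Kelch-like genes (Klhl2, Klhl5, Klhl6, Klhl7, Klhl9, Klhl12 and Klhl14) were followed across 12 whole-transcript arrays of sorted mouse B lymphoma cells. Klhl24 was selected on measured values, for its low signal after CHIR99021, and the others joined it by gene family. All 8 genes had a probe set annotated with that symbol alone and all 8 passed the filter on dim probe sets, so they made up 8 of the 12961 genes tested. Klhl9 and Klhl14 had a second probe set each, 10 in all, and the brighter one was used. Among all tested genes, Klhl24 had the largest difference downwards between CHIR99021-treated and untreated BCR-negative cells, -2.90 on the log2 scale. Next in that order came Trp53inp1 at -2.68 and Atp1b1 at -2.32.

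The cells were primary cultures of B lymphomas from l-MYC;B1-8f mice on a C57BL/6J x BALB/c background, and every group carried that genotype. Cell-permeable Cre recombinase (TAT-Cre) deletes the floxed B1-8 heavy chain gene and so removes the B cell receptor (BCR), and cells with and without a receptor were kept together for 4 days before sorting. Each of 3 tumours (2567, 2646 and 2676) gave 1 array in each of 4 groups, namely cells that kept the receptor (BCR-positive, untreated), cells that had lost it (BCR-negative, untreated), receptor-negative cells given CHIR99021, which blocks the kinase GSK3, and BCR-independent cells (untreated). The BCR-independent cells had grown out of BCR-negative tumours in long culture and were 1 clone per tumour (8, 7 and 1), each grown beside the BCR-positive cells of its own tumour. The dose of CHIR99021 is not given in the sources used here, treated BCR-positive cells were not analysed here, and treatment and culture coincide. The untreated BCR-positive and BCR-negative titles of tumours 2646 and 2676 end in an unexplained (2), so 4 titles carry that mark and 8 do not.

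Kelch-like proteins pair a BTB domain, which binds the scaffold CUL3, with Kelch repeats, which hold a substrate. They thereby act as adaptors that bring proteins to a CUL3 ubiquitin ligase, for degradation or for a change of activity. In B cells the best known member is Klhl6, which is largely restricted to lymphoid and endothelial cells, takes part in BCR signalling and germinal centre formation, and is mutated in some B cell cancers. Klhl14 is also expressed in B cells, is mutated in diffuse large B cell lymphoma and affects BCR levels. Klhl24 is known mainly from skin, where it controls the turnover of keratin 14.

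Ighv1-72, the V segment that the B1-8 chain uses and whose near copies may share its signal, gave 9.45 to 9.97 log2 units in BCR-positive, 5.85 to 6.97 in BCR-negative, 4.93 to 6.26 in CHIR99021-treated and 3.72 to 4.21 in BCR-independent cells, so the receptor-positive arrays stood above the rest. Of 9 B cell markers with a probe set, 7 had a mean over 1 log2 unit above the array medians in BCR-positive and BCR-negative cells and 6 in the other groups, while Ms4a1 and Cr2 were dim. Their summed level was 64.5 to 68.4 in BCR-positive, 62.8 to 66.2 in BCR-negative, 59.2 to 63.2 in CHIR99021-treated and 61.7 to 65.7 in BCR-independent cells. No T cell (0 of 9), NK cell (0 of 6) or erythroid and platelet marker (0 of 3) reached that height, and 1 of 10 myeloid markers (Itgam) and 1 of 7 of stroma and endothelium (Pecam1) did in every group. Of 5 plasma cell markers, 3 did in every group (Xbp1, Sdc1 and Irf4), with Prdm1 and Jchain dim, and that list's summed level was 23.8 to 27.3 in BCR-positive, 24.7 to 27.0 in BCR-negative, 23.4 to 26.1 in treated and 25.4 to 27.0 in BCR-independent cells. The B cell sum ran lowest on treated arrays, though its range there overlapped those of BCR-negative and BCR-independent cells. The part of this lower sum in the Klhl24 values below was not tested. In bulk RNA, fewer cells that express a gene and less of its RNA per cell cannot be told apart. Nothing says more about how cultures were split, so p-values here reflect only how these 12 samples vary.

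The promoter of Klhl6 is printed because Klhl6 was the member whose values over all 12 arrays came nearest to those of Klhl24, and because inhibitors of GSK3 stabilise beta-catenin, a partner of TCF/LEF factors. The 300 bases from RefSeq (GRCm38.p6, chr16:19983000-19983299, minus strand) run from 250 bases before to 50 bases after the gene's start, and the capitals mark the only match to the TCF/LEF core.

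Klhl6 promoter: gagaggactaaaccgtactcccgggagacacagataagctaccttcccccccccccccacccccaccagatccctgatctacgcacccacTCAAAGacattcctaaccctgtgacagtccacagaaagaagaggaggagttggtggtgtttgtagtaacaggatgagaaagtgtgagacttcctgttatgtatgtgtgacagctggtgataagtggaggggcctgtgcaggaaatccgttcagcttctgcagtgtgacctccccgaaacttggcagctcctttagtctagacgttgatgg

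Both strands of 7 RefSeq promoters of 6 of the 8 genes were searched for TCAAAG (the TCF/LEF core), GTAAACA (a FOXO core) and CACGTG (an E-box, the kind of site MYC binds), which do not overlap in the Klhl6 sequence since only TCAAAG occurs there. The other 6 promoters, those of Klhl2, Klhl5 (2 promoters), Klhl7, Klhl9 and Klhl12, held none of the 3 motifs. Among 32851 mouse promoters of the same length, TCAAAG occurred in 16%, GTAAACA in 3.65% and CACGTG in 7.15%. The single match in 7 promoters is near the general share for TCAAAG, and it describes letters, not binding. The set of promoters searched here held no entry for Klhl24 or Klhl14.

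Klhl24 was high in the 3 untreated groups and low in the treated one. BCR-positive cells gave 7.42, 7.67 and 7.56 log2 units in tumours 2567, 2646 and 2676 (mean 7.55 ± 0.12, SD, n = 3). BCR-negative cells gave 7.38, 8.14 and 7.91 (7.81 ± 0.39). BCR-independent cells gave 7.25, 7.86 and 6.81 (7.31 ± 0.53). The ranges of these 3 groups overlapped one another. With CHIR99021 the BCR-negative cells gave 4.39, 4.93 and 5.42 (4.91 ± 0.52), and the highest treated array lay below the lowest untreated one. The groups thus ran from BCR-negative over BCR-positive and BCR-independent to treated cells, and only the last step of that order exceeded the spread of its neighbours. Differences between groups made up 91.8% of the variance of Klhl24 over the 12 arrays, and tumours 3.38%. Klhl24 was chosen for its difference between treated and untreated BCR-negative cells, so a large share between groups follows from the choice.

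**Figure D1:**
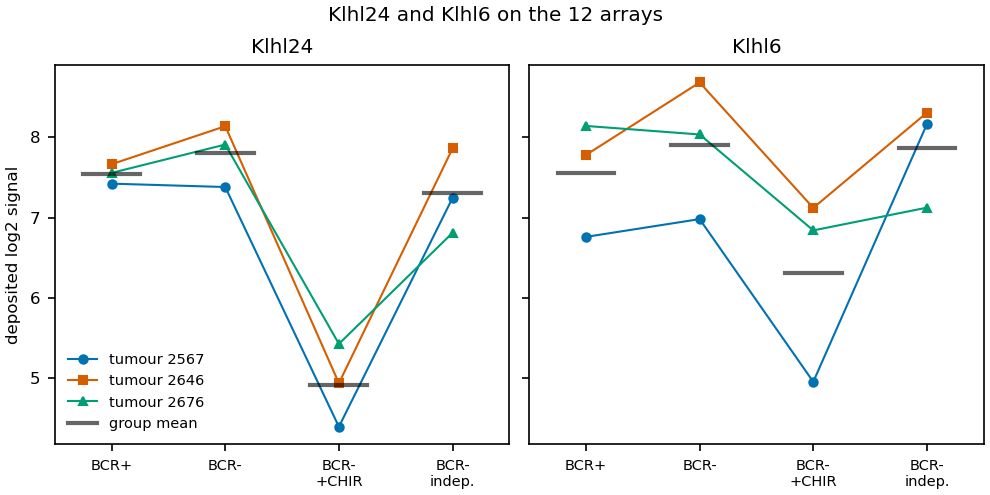
Deposited log2 signal (vertical axis) of Klhl24 and Klhl6 on 12 arrays, by group (horizontal axis: BCR+, BCR-positive; BCR-, BCR-negative; BCR- +CHIR, BCR-negative with CHIR99021; BCR- indep., BCR-independent). Points and lines follow each of 3 tumours and bars are group means. The 3 treated points of Klhl24, from 4.39 to 5.42, lie below all 9 others, whereas the treated Klhl6 points of tumours 2646 and 2676 lie within the range of other groups.

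Against untreated BCR-negative cells, treated cells had 7.45-fold less Klhl24 signal, a log2 difference of -2.90 with a standard error of 0.25. It was -2.99 in tumour 2567, -3.21 in tumour 2646 and -2.49 in tumour 2676. Tumour 2567 is the one in which the treated and the untreated BCR-negative titles both lack the mark. In this comparison 1.91% of all genes had an adjusted p under 0.05 in limma's moderated test, and 10.6% had groups that did not overlap. These shares are printed as background, since this comparison chose the gene, and no p is given for any of the 8 genes in it.

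The other comparisons of treated cells share the treated arrays with the choice of Klhl24, so its values there are a description too. Against BCR-positive cells the log2 difference was -2.63, and by tumour -3.03, -2.73 and -2.14. Against BCR-independent cells it was -2.39, and by tumour -2.86, -2.93 and -1.39. Tumour 2676 gave the smallest difference of Klhl24 in each of the 3 comparisons of treated cells, and its BCR-independent clone had the lowest untreated signal.

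Among untreated cells Klhl24 varied much less. BCR-negative cells stood 0.26 above BCR-positive cells, with tumour values of -0.04, 0.47 and 0.35. BCR-independent cells stood -0.51 from BCR-negative cells, with tumour values of -0.14, -0.28 and -1.10. These 2 comparisons use the BCR-negative arrays on which the gene was chosen and carry no test.

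BCR-independent against BCR-positive cells is the one comparison that used none of the arrays behind the choice of Klhl24. The log2 difference was -0.24 (SE 0.25, 95% interval -0.81 to 0.33, limma adjusted p = 0.811), and by tumour -0.18, 0.20 and -0.75. Klhl24 was lower in the clones of 2 of 3 tumours, and the difference did not pass the test. Leaving out tumour 2676 gave 0.0093 and leaving out tumour 2646 gave -0.46.

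Klhl6 was the second of the 8 genes with a sizeable difference after CHIR99021, but its levels depended more on the tumour. BCR-positive cells gave 6.76, 7.78 and 8.14 log2 units (7.56 ± 0.72). BCR-negative cells gave 6.98, 8.69 and 8.04 (7.90 ± 0.86). BCR-independent cells gave 8.17, 8.31 and 7.12 (7.87 ± 0.65). Treated BCR-negative cells gave 4.95, 7.12 and 6.84 (6.30 ± 1.18). The lowest value of all came from treated cells of tumour 2567, while the treated array of tumour 2646 lay within the range of both BCR-positive and BCR-negative cells and that of tumour 2676 within the range of BCR-positive cells. Tumours made up 29.2% of the variance of Klhl6 and groups 45.3%.

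Treated cells had a Klhl6 log2 difference of -1.60 from untreated BCR-negative cells (SE 0.46), a 3.03-fold lower signal, and by tumour -2.03, -1.57 and -1.20. Its size ranked 15 among the 12961 genes of this comparison, and it is a description, for the reason given for Klhl24. With the title mark as a further term the value was -1.26.

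Klhl6 was tested in the comparisons other than the one that chose Klhl24, although each but 1 shares arrays with it. From BCR-positive cells, treated cells differed by -1.26 (95% interval -2.28 to -0.23, limma adjusted p = 0.220), lower in 3 of 3 tumours (-1.81, -0.66 and -1.30). From BCR-independent cells they differed by -1.56 (-2.59 to -0.54, adjusted p = 0.219), with tumour values of -3.22, -1.19 and -0.28. These groups did not overlap, but only narrowly, with the highest treated array at 7.121 and the lowest clone array at 7.124. Both differences had an unadjusted p under 0.05, and neither passed over all genes. Without tumour 2567 the second difference was -0.74.

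Untreated groups differed little in mean Klhl6 and the tumours went different ways. The difference between BCR-negative and BCR-positive cells was 0.34 (adjusted p = 0.999, by tumour 0.22, 0.91 and -0.11). Between BCR-independent and BCR-positive cells it was 0.31 (adjusted p = 0.870), and by tumour 1.41, 0.53 and -1.02. Between BCR-independent and BCR-negative cells it was -0.03 (adjusted p = 0.994), and by tumour 1.19, -0.38 and -0.91. Klhl6 was thus higher in clone 8 of tumour 2567 and lower in clone 1 of tumour 2676 than in either untreated partner of the same tumour.

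Klhl14 stayed within 0.33 log2 units over the 12 arrays, and its 4 groups kept a narrow spread. BCR-positive cells gave 4.55, 4.54 and 4.68 (4.59 ± 0.075), BCR-negative cells 4.67, 4.55 and 4.61 (4.61 ± 0.057) and treated cells 4.61, 4.64 and 4.72 (4.66 ± 0.060). BCR-independent cells gave 4.87, 4.77 and 4.78 (4.80 ± 0.057), and all 3 clones lay above every other array. The difference from BCR-positive cells was 0.21 (95% interval 0.036 to 0.39, limma adjusted p = 0.442), higher in 3 of 3 tumours (0.32, 0.22 and 0.097). That from BCR-negative cells was 0.19 (adjusted p = 0.814), and the treated cells stood -0.15 from the clones (adjusted p = 0.511). The first 2 of these had an unadjusted p under 0.05 and none passed over all genes. The second Klhl14 probe set had means of 3.91, 3.77, 4.00 and 4.06 in BCR-positive, BCR-negative, treated and BCR-independent cells. The clones had the highest mean there as well, but their arrays (3.89 to 4.21) overlapped treated (3.79 to 4.15) and BCR-positive ones (3.88 to 3.95). In tumour 2676 the clone (3.89) lay just below the BCR-positive array (3.90) on that probe set.

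Klhl12 directs CUL3 to the Wnt pathway protein Dishevelled and to SEC31A, a coat protein of vesicles that leave the endoplasmic reticulum. It gave 4.59, 4.49 and 4.61 log2 units in BCR-positive cells and 4.87, 4.76 and 4.63 in BCR-negative cells, which did not overlap. The difference was 0.19 (95% interval -0.052 to 0.43, limma adjusted p = 0.999), and by tumour 0.27, 0.27 and 0.03. Treated cells gave 4.92, 4.82 and 4.46 and BCR-independent cells 4.61, 4.74 and 4.46, so treated cells spanned both untreated ranges and the clones overlapped them. The Klhl12 difference between treated and untreated BCR-negative cells was -0.02, with tumour values of 0.05, 0.06 and -0.17.

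For Klhl2, Klhl5 and Klhl7 the tumour set most of the spread, with 84.6%, 78.4% and 74.9% of the variance between tumours and 5.72%, 1.10% and 3.68% between groups. Klhl2, an actin-binding adaptor that also targets WNK kinases, was highest in tumour 2676 in every group, up to 5.70 in BCR-negative cells, and lowest in tumour 2567, from 4.35 to 4.55. Its difference between BCR-independent and BCR-positive cells was -0.27 (limma adjusted p = 0.583), lower in 3 of 3 tumours (-0.20, -0.17 and -0.45), and with CHIR99021 against BCR-negative cells it was -0.0040. Klhl5 was lowest in tumour 2567, at 5.49 in BCR-positive, 5.47 in BCR-negative, 6.00 in treated and 5.92 in BCR-independent cells, against 6.20 to 6.45 in tumours 2646 and 2676. Within tumour 2567 the treated cells and the clone thus stood higher than the other cells for Klhl5, by 0.53 for treated over untreated BCR-negative cells, while the same difference was -0.13 and -0.17 in the other tumours. Klhl7, mutated in a form of retinitis pigmentosa, was highest in tumour 2567 in every group (4.93 to 5.34), and its group means lay between 4.77 and 4.88.

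Klhl9, which acts with Klhl13 on the mitotic kinase Aurora B, had group means between 5.45 and 5.56. Its arrays ran from 5.20 to 5.78, both in BCR-positive cells, and all group ranges overlapped. Tumours made up 49.6% of its variance and groups 8.42%. The second Klhl9 probe set was dim, with means of 3.06 to 3.21, near the 40th percentiles of the arrays (3.06 to 3.16), and gives no further level.

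**Figure D2:**
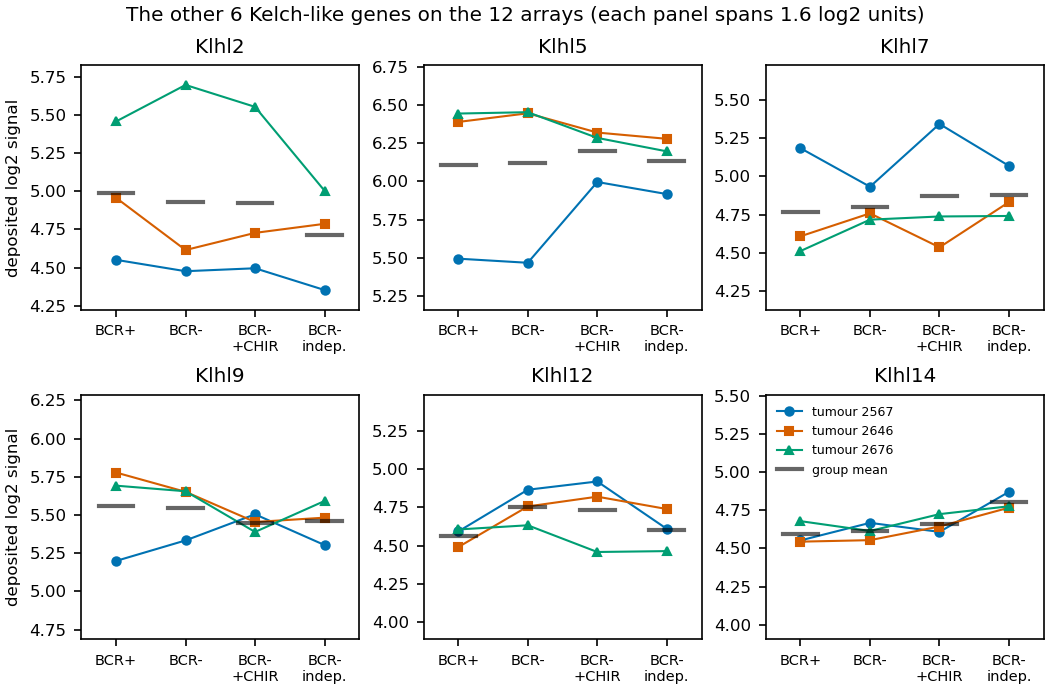
Deposited log2 signal (vertical axis) of Klhl2, Klhl5, Klhl7, Klhl9, Klhl12 and Klhl14 by group (horizontal axis, groups named as BCR+, BCR-, BCR- +CHIR and BCR- indep.). Points and lines are the 3 tumours, bars are group means, and every panel spans the same log2 range. Lines of Klhl2, Klhl5 and Klhl7 are ordered mainly by tumour, and the Klhl14 points reach 4.77 only in BCR-independent cells.

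In the 5 pairs of groups in which members were tested, none of those tested passed. Klhl24 was tested in 1 of these pairs, and no member in treated against untreated BCR-negative cells. In BCR-negative against BCR-positive cells, 0 of 7 tested members were called by limma, 0 had an unadjusted p under 0.05 and 1 of 8 (Klhl12) had groups apart, where 0.00772% of all genes were called, 3.19% had an unadjusted p under 0.05 and 4.51% had groups apart. In BCR-independent against BCR-positive cells, 0 of 8 were called, 1 (Klhl14) had an unadjusted p under 0.05 and 1 of 8 (Klhl14) had groups apart, beside 0.0849%, 9.61% and 7.35% of all genes. In BCR-independent against BCR-negative cells, 0 of 7 were called, 1 (Klhl14) had an unadjusted p under 0.05 and 1 of 8 (Klhl14) had groups apart, beside 0.00772%, 5.99% and 4.54%. Few genes of any kind were called between untreated groups, and 1 of 8 is the smallest count above 0 that the Kelch-like genes could give.

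In treated against BCR-positive cells, 0 of 7 were called, 1 (Klhl6) had an unadjusted p under 0.05 and 1 of 8 (Klhl24) had groups apart, beside 0.802%, 15.6% and 11.5% of all genes, so the Klhl6 count is about the general share. In treated against BCR-independent cells, 0 of 7 were called, 1 (Klhl6) had an unadjusted p under 0.05 and 3 of 8 (Klhl24, Klhl6 and Klhl14) had groups apart, beside 0.162%, 12.3% and 8.19%. Klhl24 counts there because of the arrays on which it was chosen. Klhl6 counts there by a narrow margin, with the highest treated array at 7.121 and the lowest clone array at 7.124. In treated against untreated BCR-negative cells, 3 of the 8 stood higher and 5 lower, with a median log2 difference of -0.01 beside 0.03 over all genes. Klhl24 and Klhl6 apart, the fitted differences of the other 6 genes in that comparison lay between -0.10 (Klhl9) and 0.08 (Klhl5). With a term for the title mark Klhl5 came to 0.50 and Klhl9 to 0.14 there, and the mean of both Klhl14 probe sets gave 0.14.

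**Figure D3:**
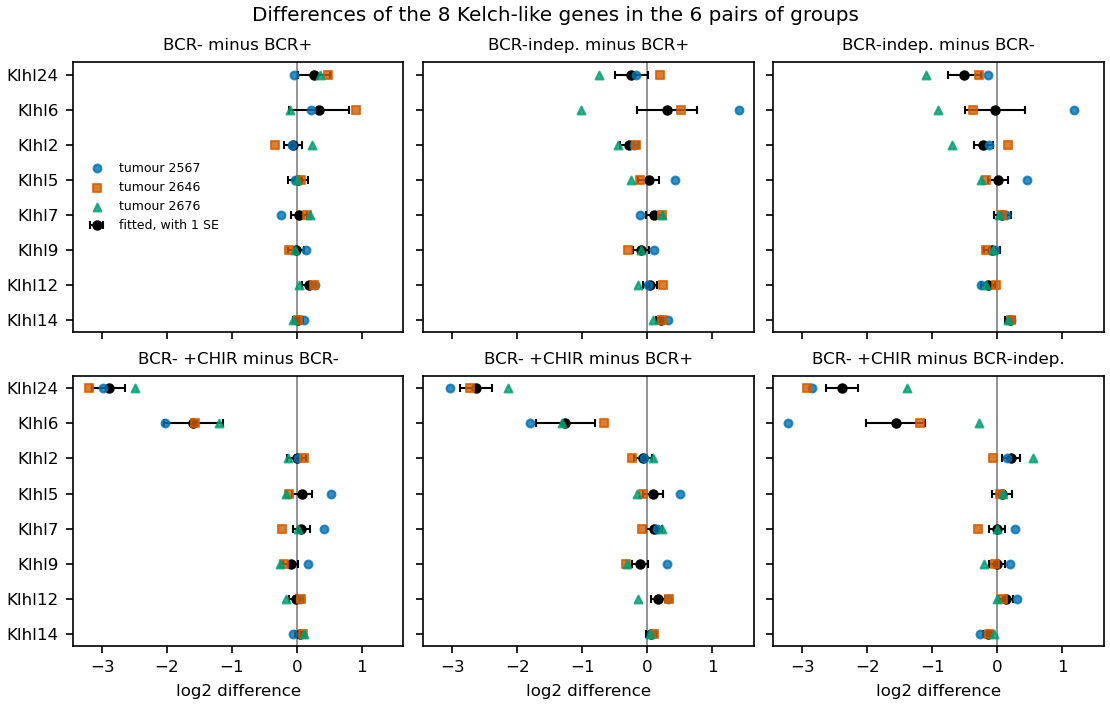
Log2 differences (horizontal axis) of the 8 Kelch-like genes (vertical axis) in 6 pairs of groups, each titled as first minus second group. Coloured points are single tumours, and black points are fitted values with bars of 1 standard error. In the 3 lower panels Klhl24 lies between -1.39 and -3.21 in every tumour, whereas the points of Klhl2, Klhl5, Klhl7, Klhl9, Klhl12 and Klhl14 lie between -0.32 and 0.55.

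Klhl6 and Klhl24 are immediate neighbours in the RefSeq gene order of GRCm38.p6, with no listed gene between them. The next tested gene on the other side of Klhl24, Yeats2, differed by 0.03 between treated and untreated BCR-negative cells, and Map6d1 after it by -0.03. Beyond Klhl6, the noncoding A930003A15Rik differed by -0.07, B3gnt5 by 0.13 and Olfr166 by 0.21, with limma adjusted p of 0.792, 0.931 and 0.749. Parl, a protease of the inner mitochondrial membrane, rose by 0.61 (SE 0.093, limma adjusted p = 0.0268), by 0.57, 0.64 and 0.62 in the 3 tumours, and Abcc5 differed by 0.14. The 7 tested genes around Klhl24 other than Klhl6 thus lay between -0.07 and 0.61. Parl also stood above BCR-positive cells after treatment, by 0.58 (adjusted p = 0.0360). In untreated BCR-independent cells Parl was 0.45 above BCR-negative (limma adjusted p = 0.515) and 0.42 above BCR-positive cells (0.254), in 3 of 3 tumours each. Treated and BCR-independent cells differed by 0.16 for Parl (adjusted p = 0.559).

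**Figure D4:**
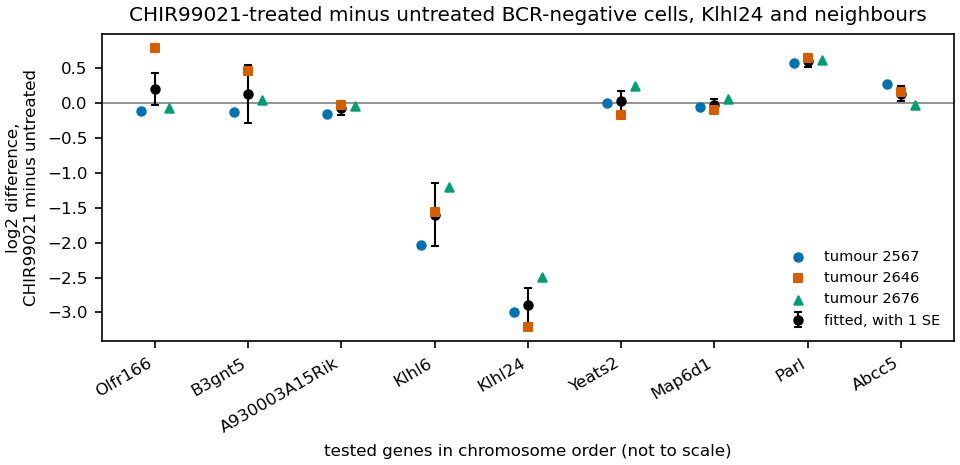
Log2 difference between CHIR99021-treated and untreated BCR-negative cells (vertical axis) for Klhl24 and the nearest 4 tested genes on each side, in chromosome order and not to scale (horizontal axis). Coloured points are tumours, and black points are fitted values with bars of 1 standard error. The adjacent pair Klhl6 (-1.60) and Klhl24 (-2.90) lies low, and Parl lies at 0.61.

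Likeness to Klhl24 was measured as the Pearson correlation over the 12 arrays after each tumour's mean was taken away, as a description, since arrays of a tumour share their source and treated arrays dominate the pattern. The closest genes were H2az2, a variant of histone H2A, at 0.989, Fcrla, an Fc receptor-like protein of B cells, at 0.986, Mxd4, a MAX partner that opposes MYC, at 0.984, Akap12, a scaffold of protein kinase A, at 0.984 and Pafah1b3 at 0.983. The most opposed were Emc4 at -0.972, Cct3 at -0.971 and Mrpl38 at -0.971. Klhl6 came to 0.844, rank 167 of 12960, where 2.11% of genes exceeded 0.8. The other 6 Kelch-like genes lay between -0.31 (Klhl12) and 0.18 (Klhl9). Over the 9 arrays without the treated cells, Klhl2 came to 0.667, Klhl12 to 0.584 and Klhl6 to 0.502, ranks 799, 1254 and 1727. The remaining members lay between -0.458 (Klhl14) and 0.344 (Klhl5) there. On the 6 arrays of BCR-positive and BCR-independent cells alone the closest were Papss2, Dynlrb1, Ranbp6, Copa and Pomt1 and the most opposed Arc, Camk4 and Colgalt1, but centring leaves 1 free value per tumour there and 24.2% of all genes exceeded 0.8 in size, so that ranking carries little.

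The wider family and the ligase were read from lists drawn up with earlier results of these data known. Of 43 other Kelch-like and Kelch BTB genes, 31 were tested and 0 were called by limma in any of the 6 comparisons, with 0 to 3 at an unadjusted p under 0.05, a level that 3.19% to 16.6% of all genes reached in these comparisons. With CHIR99021 against untreated BCR-negative cells, 13 of the 31 stood higher and 18 lower, with a median of -0.06 beside 0.03 over all genes. The widest of them was Klhl41, best known from muscle, at -0.52 (adjusted p = 0.622) and, for treated against BCR-independent cells, -1.04 (adjusted p = 0.358). Klhl41 depended on the tumour, with BCR-positive signals from 3.73 to 6.95. Kbtbd2, an adaptor in insulin signalling, differed by -0.31 and Kbtbd8 by 0.33 after treatment (adjusted p = 0.154 and 0.275). Klhl42, Kbtbd11 and Kbtbd6 were widest between BCR-negative and BCR-positive cells at 0.23, 0.22 and -0.22. Klhl42 also stood 0.42 higher in BCR-independent than in BCR-positive cells (adjusted p = 0.337), higher in 3 of 3 tumours, and Kbtbd7 stood -0.43 from them (adjusted p = 0.522). Kbtbd4 and Kbtbd12 differed by -0.30 and 0.25 between BCR-independent and BCR-negative cells, and Kbtbd12 by -0.53 between treated and BCR-independent cells (adjusted p = 0.279). Klhl21, an adaptor for Aurora B in mitosis, differed by 0.33 between treated and BCR-positive cells (adjusted p = 0.347).

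Of the machinery that Kelch-like adaptors work with, Cul3, Rbx1 and Nedd8 had differences between -0.01 and 0.16 after treatment. Cul3, the scaffold, differed by -0.01 between treated and untreated BCR-negative cells (adjusted p = 0.981), Rbx1, the RING subunit, by 0.02 (0.933) and Nedd8, the modifier that activates cullins, by 0.16 (0.634). None of the 27 tested genes of the CUL3 core and neddylation list was called in any of the 6 comparisons. Between 1 and 6 had an unadjusted p under 0.05, beside 3.19% to 16.6% of all genes. The count of 6 came in treated against BCR-positive cells, beside 15.6% of all genes. There 5 of the 27 had groups apart, beside 11.5% of all genes. Over the 6 comparisons the differences of the listed genes lay between -0.46 and 0.50. In this list 22 stood higher and 5 lower after treatment, between -0.20 and 0.42, with a median of 0.11 beside 0.03 over all genes. Among 22 tested CUL3 adaptors of other BTB families, 2 rose with CHIR99021 against untreated BCR-negative cells, where 1.91% of all genes were called, Kctd13 by 0.63 (limma adjusted p = 0.0249) and Tnfaip1 by 0.53 (0.0361), 2 related adaptors that target the GTPase RhoA. Of that list 7 stood higher and 15 lower, with a median of -0.04. Tnfaip1 was also 0.68 above BCR-positive cells (adjusted p = 0.0271). Among 13 tested genes listed as substrates or partners of the Kelch-like proteins, 1 was called, in treated against untreated BCR-negative cells. The share of all genes called there was 1.91%. That gene was Sec31a, the Klhl12 substrate, which rose by 0.42 (limma adjusted p = 0.0482), by 0.40, 0.43 and 0.44 in the 3 tumours. In the same comparison 5 of the 13 stood higher and 8 lower. The Sec31a call was kept in 4 of 13 alternatives and was also lost with the 60th percentile filter and with quantile or cyclic loess normalization.

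A list of 20 tested FOXO target genes was set beside Klhl24, because FOXO factors act downstream of BCR and PI3K signalling. After treatment 18 of the 20 stood lower than in untreated BCR-negative cells, with a median of -0.68 beside 0.03 over all genes, and 4 fell with an adjusted p under 0.05. These were Trp53inp1 (-2.68, limma adjusted p = 0.00439), the cyclin Ccng2 (-2.01, 0.0278), the antiproliferative Btg1 (-1.21, 0.0268) and Fbxo32 (-0.51, 0.0480), and 12 had an unadjusted p under 0.05, beside 1.91% and 16.6% of all genes. Fbxo32 was dim, at 3.23 to 3.40 in treated and 3.68 to 4.06 in untreated BCR-negative cells, beside array medians of 3.32 to 3.44. Treated Ccng2 (3.80 to 3.83) was also not far above these medians. Against BCR-positive cells 3 of these 4 genes were called lower (Trp53inp1, Ccng2 and Btg1, limma adjusted p = 0.0143, 0.0376 and 0.0430), beside 0.802% of all genes. Against BCR-independent cells 1 was called lower (Trp53inp1, -2.22, limma adjusted p = 0.0222), beside 0.162% of all genes. Called or not, all 4 had lower signals in treated than in BCR-positive and BCR-independent cells of every tumour. In these comparisons 15 and 18 of the 20 stood lower, with medians of -0.39 and -0.44. Between untreated groups 0 of the 20 were called by limma, with 1 or 2 at an unadjusted p under 0.05. Of all genes, 0.00772% to 0.0849% were called there and 3.19% to 9.61% had an unadjusted p under 0.05. In BCR-negative against BCR-positive cells 17 stood higher (median 0.17), in BCR-independent against BCR-positive cells 14 stood higher (median 0.12), and in BCR-independent against BCR-negative cells 17 stood lower (median -0.21). The list was drawn up with earlier results of these data known, the large difference of Trp53inp1 among them, so these counts are no independent evidence of a direction. Trp53inp1, Rag2 and Ccng2 of this list ranked 2, 5 and 6 among the largest falls of all genes in treated against untreated BCR-negative cells. Of the 14 calls at listed genes and at Parl in the comparisons of treated cells, 3 remained without tumour 2567 and 0 without tumour 2646 or without tumour 2676, with the same sign throughout. Without the tumour block 1 of the 14 remained, with only the 2 groups compared 3, and with a term for the title mark 2.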

How the data were processed

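Total RNA of 12 samples was hybridised to Affymetrix whole-transcript mouse arrays. The authors deposited log2 signals, and the submitters' processing notes name RMA and Affymetrix Power Tools, with versions not given in the sources used here. RMA compresses differences of dim probe sets. Of 35556 probe sets, 21218 had 1 gene symbol; 21185 symbols were updated by gene ID (RefSeq, GRCm38.p6). Kept were probe sets that on 3 or more arrays exceeded the 40th percentile of that array, with the brightest taken for each of 12961 genes. limma 3.58.1 in R 4.3.3 (lmFit, eBayes) fitted group with tumour as a block, all 12 arrays together; a call is a Benjamini-Hochberg adjusted p under 0.05 over all genes. Tumour numbers pair the arrays because each tumour gave 1 array per group: residuals of 1 tumour correlated at 0.284 to 0.792, and 12 of 12 arrays matched their own tumour best. The fit was run on simulated arrays with known changes to check the size and direction of fitted differences. That is no check of the calls given here. The members and lists were chosen with earlier results of these data known. Named genes are the 8 members, Ighv1-72, the genes most and least like Klhl24, its tested neighbours, list genes called, the 3 widest other Kelch genes per comparison, Cul3, Rbx1 and Nedd8. Alternatives were no block, other filters, normalizations and weights, only the 2 groups compared, averaged probe sets, the title mark as a term, and each tumour left out.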

Additional observations from a re-analysis of the deposited data

How the results depend on the processing

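None of the members tested passed the threshold under an alternative in the 5 comparisons in which they were tested. Of 624 values of the 8 genes under the alternatives, 43 changed sign, 34 of 520 in these comparisons and 9 of 104 in treated against untreated BCR-negative cells, which carry no test. Klhl24 in treated against untreated BCR-negative cells ranged from -3.10 to -2.74, and Klhl6 from -1.80 to -1.26. Without the tumour as a block, which pairs the arrays, the genes called were 0 of 12961 in BCR-negative against BCR-positive and in BCR-independent against BCR-negative cells, 4 in BCR-independent against BCR-positive cells, and 7, 5 and 12 in treated against BCR-positive, BCR-independent and BCR-negative cells, where the block gave 1, 1, 11, 104, 21 and 248. With only the 2 groups compared they were 2, 0, 1, 0, 1 and 109, and a term for the title mark gave 2, 0, 12, 8, 33 and 32, in the same order. Array weights gave 3 in BCR-independent against BCR-positive cells and 168, 39 and 1635 in the comparisons of treated cells, cyclic loess gave 182 and 37 against BCR-positive and BCR-independent cells, and quantile normalization 33 against the latter. With each tumour left out in turn, the counts ran from 0 to 0, 0 to 3, 1 to 4, 4 to 19, 0 to 12 and 1 to 17, fewer samples in each. The cause of the other shifts was not tested.

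With array weights, BCR-negative against BCR-positive cells gave 0.0082 for Klhl2 and 0.040 for Klhl9, and BCR-independent against BCR-negative cells gave -0.076 for Klhl5. The mean of both Klhl14 probe sets gave -0.061 in BCR-negative against BCR-positive cells. Quantile normalization gave -0.0012 for Klhl5 and -0.023 for Klhl12 in BCR-independent against BCR-positive cells, -0.017 for Klhl5 against BCR-negative cells, and 0.020 for Klhl7 and 0.0024 for Klhl9 in treated against BCR-independent cells. The title mark gave Klhl9 0.14 and 0.15 in BCR-independent against BCR-positive and BCR-negative cells and 0.13 in treated against BCR-positive cells, and Klhl6 0.30 in BCR-independent against BCR-negative cells. With 1 tumour left out, BCR-negative against BCR-positive cells ran from -0.21 to 0.082 for Klhl2, -0.0090 to 0.033 for Klhl5, -0.051 to 0.18 for Klhl7, -0.082 to 0.049 for Klhl9 and -0.027 to 0.062 for Klhl14. BCR-independent against BCR-positive cells ran from -0.46 to 0.0093 for Klhl24, -0.18 to 0.16 for Klhl5, -0.25 to 0.97 for Klhl6, -0.20 to 0.0019 for Klhl9 and -0.062 to 0.13 for Klhl12. BCR-independent against BCR-negative cells ran from -0.41 to 0.024 for Klhl2, -0.21 to 0.14 for Klhl5 and -0.65 to 0.40 for Klhl6. Treated against BCR-positive cells ran from -0.14 to 0.020 for Klhl2, -0.11 to 0.22 for Klhl5 and -0.31 to 0.0012 for Klhl9, and treated against BCR-independent cells from -0.15 to 0.14 for Klhl7 and -0.12 to 0.086 for Klhl9. In treated against untreated BCR-negative cells, the title mark gave 0.046 for Klhl2, 0.14 for Klhl9 and 0.0055 for Klhl12, array weights gave -0.038 for Klhl5 and -0.031 for Klhl7, leaving out tumour 2567 gave -0.15 for Klhl5 and -0.10 for Klhl7, and leaving out tumour 2676 gave 0.066 for Klhl2 and 0.059 for Klhl12. The number of arrays, 3 per group, limits the precision.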
